A study of Mus musculus with 9 samples.

Results

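The genes described here release, sense and break down ATP outside the cell. They are 10 genes chosen by symbol: the pannexin Panx1, the ATP-gated channels P2rx4 and P2rx7, the nucleotide receptors P2ry1, P2ry2 and P2ry6, the ectonucleotidases Entpd1, Entpd2 and Nt5e, and the adenosine receptor Adora1. All 10 were listed in both deposited tables, which hold 17964 genes between them. RNA was measured in 9 libraries from wild-type mouse retina. In the sham group (3 libraries) eyes received a corneal incision and no oil, and in the ocular hypertension group (OHT, 3 libraries) 1.2 µL of silicone oil was injected into the front chamber of both eyes to raise the pressure. Each of these libraries came from 4 pooled retinas, and cells were enriched as Müller glia on magnetic beads with an antibody to the glutamate transporter GLAST. The labels give neither the strain or age of these mice nor the time after surgery. The third group (3 libraries) was untreated primary culture grown in serum from retinas of C57BL/6J pups 8 to 10 days old. Nothing in the labels says whether the cultures came from separate litters, so their spread may be technical.

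Cells that are stretched or injured can pass ATP through pannexin channels. P2X receptors are cation channels opened by ATP, and P2Y receptors are G protein-coupled receptors for ATP, ADP or UDP. The enzyme CD39, made by Entpd1, cuts ATP and ADP to AMP, the related enzyme of Entpd2 mainly cuts ATP to ADP, and CD73, made by Nt5e, turns AMP into adenosine, which then acts on its own receptors. In the retina Müller glia release and answer ATP, while P2X4, P2X7, P2Y6 and CD39 are well known from microglia, and CD73 from rod photoreceptors.

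The labelled cell type was checked against markers. A list of 10 Müller glia genes summed to between 4503 and 11796 ppm (reads per 1000000 reads of the library) in sham and between 2515 and 5440 ppm in OHT, with none of its genes at 0. A list of 12 microglia and macrophage genes summed to more in every sorted library, at 29849 to 48100 ppm in sham and 46074 to 54792 ppm in OHT. The 10 rod genes summed to 2602, 24202 and 19957 ppm in sham replicates 1, 2 and 3, and to 914, 1048 and 3300 ppm in OHT replicates 1, 2 and 3. In the cultures the Müller glia list summed to 2935 to 3659 ppm, of which Vim, which many cultured cells express, made up 2301 to 3319 ppm. The other 9 genes summed to 340.0 to 634 ppm there and 2409 to 11669 ppm in the sorted libraries. Rlbp1, which defines Müller glia in the retina, was at 1.60 to 2.84 ppm there against 389 to 2090 ppm in the sorted libraries. Mural and fibroblast genes summed to 16146 to 19116 ppm in the cultures, against 31.3 to 598 ppm in the sorted libraries. Acta2, Col1a1 and Col1a2 carried the culture sum, while the pericyte gene Rgs5 was at 2.58 to 3.44 ppm there and 4.85 to 226 ppm in the sorted libraries, and Vtn was not listed in the culture table. Depth was 37.8 to 53.6 M reads (M, 1000000) in the sorted libraries and 66.3 to 76.7 M in the cultures.

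Between OHT and sham, log2 differences of normalised values had both signs among the 10 genes. P2rx4, P2rx7, P2ry1, P2ry2, P2ry6 and Entpd1 had positive log2 differences, and Adora1, Nt5e, Entpd2 and Panx1 had negative ones. For Panx1 the OHT mean was above the sham mean in normalised values and below it in ppm. The sign of its log2 difference turned with edgeR and DESeq2. None of the 10 genes passed an adjusted p under 0.05 in limma, where 0.0% of 14403 genes passed. At an unadjusted p under 0.05 there was 1 member on the higher side, P2rx4, where 5.37% of all genes were called, and there were 3 on the lower side, Adora1, Nt5e and Entpd2, where 6.3% of all genes were called. edgeR and DESeq2 on recovered reads also called 0 of the 10 at an adjusted p under 0.05, where DESeq2 called 1.74% of all genes. Normalised values of the groups did not overlap for 2 members, Adora1 and Entpd2, both lower in OHT (9.18% of all genes). No member had all OHT values above all sham values, either as normalised values (9.26% of all genes) or in ppm (5.44% of all genes). The median log2 difference was 0.27 over the members and -0.12 over all genes. Another scaling moved both medians: quantile normalization gave -0.03 and 0.01, and a correction for transcript GC content and length gave 0.64 and 0.17. These are bulk samples, so fewer cells of a type and less RNA per cell cannot be told apart.

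**Figure D1:**
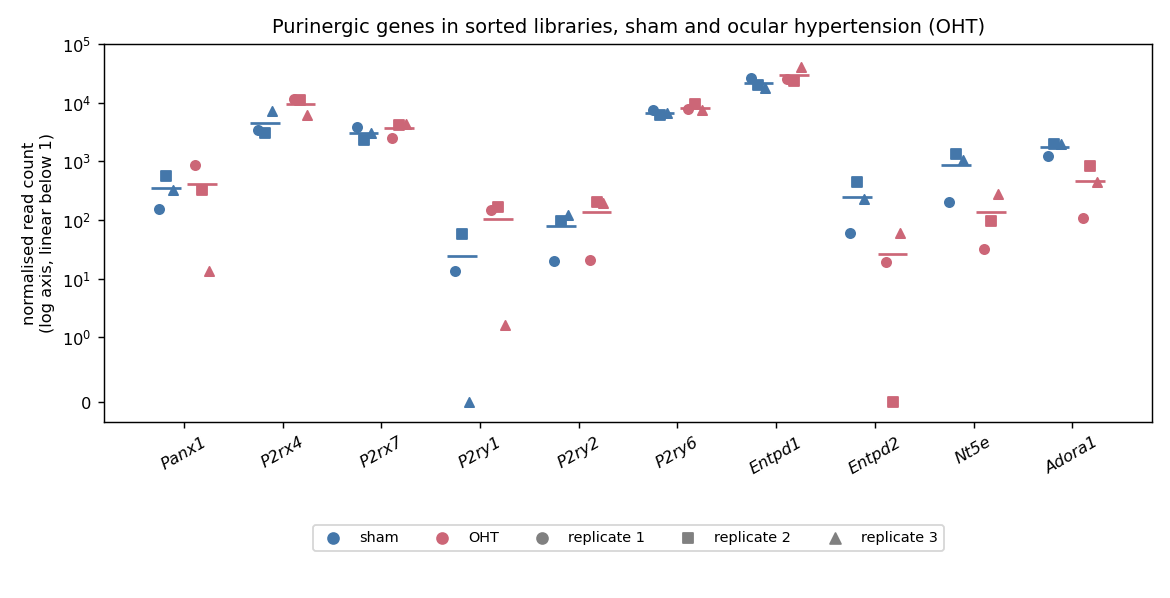
Normalised read counts (vertical, log axis that is linear below 1) of the 10 genes in the 3 sham and 3 OHT libraries; each point is a library, its shape gives the replicate number, and each bar is a group mean. Entpd1 was the highest in each of the 6 libraries, Adora1 separated the groups, and P2ry1 and Entpd2 each had a library at 0.

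Panx1, the channel through which ATP can leave a cell, varied more within OHT than between the groups. Normalised read counts were 151.9, 566.4 and 328.2 in sham replicates 1, 2 and 3, and 871.9, 326.8 and 13.6 in OHT replicates 1, 2 and 3. In these counts OHT held both the highest and the lowest library, and its values enclosed those of sham. In ppm the highest was sham replicate 2, at 14.4 against 13.3 in OHT replicate 1. The OHT mean (404.1 ± 434, SD, n = 3) was above the sham mean (348.8 ± 208) in normalised counts, but below it in ppm (7.01 against 8.67). The log2 difference of normalised counts was -0.92 with an SE of 1.28 (limma adjusted p 0.765, two-sided exact permutation test p 0.8). Without OHT replicate 3, which had 17 reads of Panx1, the log2 difference was 0.81.

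P2rx4, an ATP-gated channel that is also found in the membranes of lysosomes, had the largest difference among the channels. It was at 3408, 2988 and 7317 normalised counts in sham replicates 1, 2 and 3 and at 11568, 11203 and 6178 in OHT replicates 1, 2 and 3. Sham replicate 3 lay above OHT replicate 3, so the groups overlapped. The sham mean was 4571 ± 2387 and the OHT mean 9650 ± 3012 (SD, n = 3), a log2 difference of 1.14 (SE 0.42, limma unadjusted p 0.0188, adjusted p 0.364, exact permutation p 0.2). The difference was positive in each of the 19 alternatives, from 0.84 to 1.55, and the smallest adjusted p among them was 0.139. In ppm of each library's total the sham libraries held 87.2, 75.9 and 172 and the OHT libraries 176, 254 and 164. On normalised values 10 of the 12 microglia and macrophage genes had positive log2 differences (45.2% of all genes), with a median of 0.59. Of these 3 had an unadjusted p under 0.05 in limma (5.37% of all genes on the higher side) and none passed the adjusted test. For 6 of the 12 all OHT values were above all sham values (9.26% of all genes), and for 5 of the 12 in ppm (5.44% of all genes). In ppm the OHT mean was higher for 7 of the 12, Trem2 and Tyrobp among them. It was lower for 5, Csf1r and P2ry12 among them, and the sums of the groups overlapped. The part of this list in the P2rx4 difference was not tested.

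P2rx7, the ATP-gated channel that opens at high ATP and is coupled to the release of interleukin-1β, was nearly level between the groups. Its normalised counts were 3776, 2295 and 2980 in sham replicates 1, 2 and 3 and 2504, 4123 and 4313 in OHT replicates 1, 2 and 3. The ranges overlapped over most of their width. The means were 3017 ± 741 and 3647 ± 994, 0.26 apart on the log2 scale (SE 0.37, limma adjusted p 0.767), and the difference was 0.02 after quantile normalization and 0.74 after the GC and length correction. Within a library, reads of P2rx4 were 0.903, 1.30 and 2.46 times those of P2rx7 in the sham libraries, 4.62, 2.72 and 1.43 times in the OHT libraries, and 10.0 to 30.4 times in the cultures. This ratio does not depend on the scaling of the libraries, and sham and OHT overlapped in it.

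P2ry6, the receptor for UDP that is known from phagocytic microglia, was the steadiest member. It was at 7611, 6101 and 6591 normalised counts in sham replicates 1, 2 and 3 and at 7851, 9420 and 7415 in OHT replicates 1, 2 and 3. In these counts only OHT replicate 3 fell inside the sham range, and the others lay above it. In ppm OHT replicate 1 was the lowest of the 6 libraries, at 119 against 155 to 195 in sham. In normalised counts the highest library was 1.54 times the lowest, and the group means were 6767 ± 770 and 8229 ± 1054 (sham and OHT, SD, n = 3). Their log2 difference of 0.28 (SE 0.30, limma adjusted p 0.705, exact permutation p 0.2) was -0.08 after quantile normalization.

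P2ry2, the receptor for ATP and UTP, was low in the sorted libraries. Its normalised counts were 19.6, 94.1 and 119.6 in sham and 20.7, 198.4 and 193.1 in OHT, in the order of replicates 1, 2 and 3. In both groups replicate 1 was far below the others, and the groups overlapped. On the log2 scale OHT minus sham was 0.61 (SE 1.19, limma adjusted p 0.840), and it became -0.18 without sham replicate 1.

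P2ry1, the receptor for ADP, was the lowest member in sham per transcript length. Replicates 1, 2 and 3 held 13, 63 and 0 reads in sham and 105, 203 and 2 reads in OHT. A count of 0 allows up to 3 reads, or 0.0675 ppm, in sham replicate 3. Replicate 3 was thus the lowest library of both groups, and the groups overlapped. The log2 difference of 2.08 had an SE of 1.99 (limma adjusted p 0.669) and ranged from 0.45 without sham replicate 3 to 4.05 without OHT replicate 3. This limit covers counting error alone, because the libraries were amplified and carry no molecular identifiers.

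Entpd1, whose product CD39 removes ATP and ADP at the surface of immune and endothelial cells, had the highest level of the 10 genes in every sorted library, also per transcript length. It was at 25860, 20044 and 18067 normalised counts in sham replicates 1, 2 and 3 and at 25567, 23834 and 40425 in OHT replicates 1, 2 and 3. OHT replicate 3 stood above the other 5 libraries, and the remaining OHT libraries lay within the sham range of normalised counts. In ppm OHT replicate 1, at 389, lay below the sham range of 425 to 662. The normalised means were 21324 ± 4051 and 29942 ± 9120 (SD, n = 3), with a log2 difference of 0.47 (SE 0.34, limma adjusted p 0.578, exact permutation p 0.3). It was 0.23 without OHT replicate 3 and 0.04 after quantile normalization.

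RefSeq gives 2 starts for Entpd1, and the 250 bases before each are shown because of the 10 genes it had the widest gap in mean level between sorted cells and cultures. Capitals mark matches to GAGGAA, the core of the motif that the myeloid factor PU.1 and other ETS factors bind. The sequences are from build GRCm38.p6, plus strand, 5′ to 3′, at chr19:40612116-40612365 and chr19:40659520-40659769, while the submitters' processing notes name mm39 for the reads.
Entpd1 upstream start: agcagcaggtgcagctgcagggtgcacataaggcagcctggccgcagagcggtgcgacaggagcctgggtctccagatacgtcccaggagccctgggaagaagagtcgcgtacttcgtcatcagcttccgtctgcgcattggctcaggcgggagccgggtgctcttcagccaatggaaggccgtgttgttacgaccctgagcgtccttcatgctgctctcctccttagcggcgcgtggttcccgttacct
Entpd1 downstream start: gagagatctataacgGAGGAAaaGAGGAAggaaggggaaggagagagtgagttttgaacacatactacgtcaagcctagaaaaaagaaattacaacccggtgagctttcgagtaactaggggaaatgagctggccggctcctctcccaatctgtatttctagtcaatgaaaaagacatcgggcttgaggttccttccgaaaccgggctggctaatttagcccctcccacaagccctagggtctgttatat
The window of the downstream start held 2 matches, the first beginning 235 bases before the start, and that of the upstream start held none. GAGGAA, searched on both strands, was in 23.3% of the 32851 promoter windows of this length, so a match is common. RefSeq gave 13 windows for 9 of the members, P2ry6 being without one, and GAGGAA was in 1 of the 13. TAATCC, the core bound by the photoreceptor factor CRX, was in none of the 13 and in 6.25% of all windows. The expression tables do not tell which start was used.

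Entpd2, an ectonucleotidase known from glia, was low and differed widely between libraries. It had 59, 488 and 234 reads in sham replicates 1, 2 and 3 and 14, 0 and 74 reads in OHT replicates 1, 2 and 3. As normalised counts these were 60.9, 450.1 and 223.9 in sham and 19.3, 0 and 59.3 in OHT. The lowest sham library lay just above the highest OHT library, but in ppm the order of this pair turned, at 1.56 against 1.57. The log2 difference was -4.11 (SE 1.55, limma unadjusted p 0.0220, adjusted p 0.370, exact permutation p 0.1, the smallest that 3 against 3 can give). It was -2.85 with a pseudocount of 10, -3.22 with DESeq2, -3.29 with edgeR and -2.40 without OHT replicate 2, in which the count of 0 allows up to 0.056 ppm. In GENCODE M21 the gene overlaps Npdc1 by 1971 bases on the same strand, and how reads in shared bases were counted is not known. Npdc1 was at 377.1, 1014 and 835.3 normalised counts in sham and 164.4, 198.4 and 152.3 in OHT, also without overlap (9.18% of all genes on the lower side). The 6 astrocyte genes, another glial type, all had negative log2 differences with a median of -2.32. They summed to 13.6, 751 and 1318 ppm in sham and 55.2, 20.4 and 104 ppm in OHT, so sham replicate 1 was the lowest library. Pax2, Pdgfra and Igfbp3 were at 0 in part of the sorted libraries. Log2 differences were also negative for 9 of the 10 Müller glia genes (median -0.81) and all 10 rod genes (median -2.20). The part of these lists in the Entpd2 difference was not tested.

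Nt5e, which makes adenosine from AMP as the last step outside the cell, had its low values in OHT and in 1 sham library. It was at 201.5, 1315 and 1065 normalised counts in sham replicates 1, 2 and 3 and at 31.8, 94.7 and 279.7 in OHT replicates 1, 2 and 3. Sham replicate 1 lay below OHT replicate 3, so the groups overlapped. The means were 860.6 ± 584 and 135.4 ± 129 (SD, n = 3), with a log2 difference of -2.78 (SE 0.96, limma unadjusted p 0.0144, adjusted p 0.343, exact permutation p 0.2). In the alternatives it ranged from -3.63 without sham replicate 1 to -2.0 without OHT replicate 1, and the smallest adjusted p was 0.0619, with DESeq2. The 10 rod genes all had negative log2 differences, with a median of -2.20, and their sum was in the same 2 sham libraries high (19957 and 24202 ppm) and in sham replicate 1 low (2602 ppm, within the OHT range). The part of rod RNA in the Nt5e difference was not tested.

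Adora1, a receptor of adenosine that lowers cyclic AMP, separated the groups most clearly. Its normalised counts were 1208, 1939 and 2006 in sham replicates 1, 2 and 3 and 107.8, 827.3 and 441.6 in OHT replicates 1, 2 and 3. All sham libraries were above all OHT libraries, also in ppm, where the nearest pair stood at 30.9 and 18.8 (11.4% of all genes were lower in OHT without overlap in ppm). The means were 1718 ± 443 and 458.9 ± 360 (SD, n = 3), a log2 difference of -2.29 (SE 0.69). By limma's unadjusted p of 0.00624 the gene stood at rank 261 of 14403, with an adjusted p of 0.332, and the exact permutation p was 0.1. The difference was between -2.93 and -1.47 when 1 library was left out, the latter without OHT replicate 1. Log2 differences were negative for all 6 astrocyte genes and for 9 of the 10 Müller glia genes (median -0.81). They were negative for all 6 listed retinal ganglion cell genes (median -1.27), 3 of them without overlap (9.18% of all genes). Negative too were all 10 rod genes (median -2.20), all 6 endothelial genes (median -1.27) and all 7 tested mural and fibroblast genes (median -2.31). Of these lists 2, 0 and 3 genes, in this order, were without overlap (9.18% of all genes). Over all genes 45.2% were positive. Ganglion cell genes summed to 52.1 to 73.9 ppm in sham and 18.6 to 59.6 ppm in OHT, and in ppm the OHT mean was higher for 1 of the 6. Sham replicate 1, with a rod sum within the OHT range, was above every OHT library in Adora1. The part of these cell types, rods included, was not tested. Adora1 overlaps Mybph by 2010 bases on the opposite strand in GENCODE M21, and whether counting used strand is not known. Mybph was at 191.4 to 214 normalised counts in sham and 15.2 to 133.4 in OHT, without overlap (9.18% of all genes on the lower side).

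**Figure D2:**
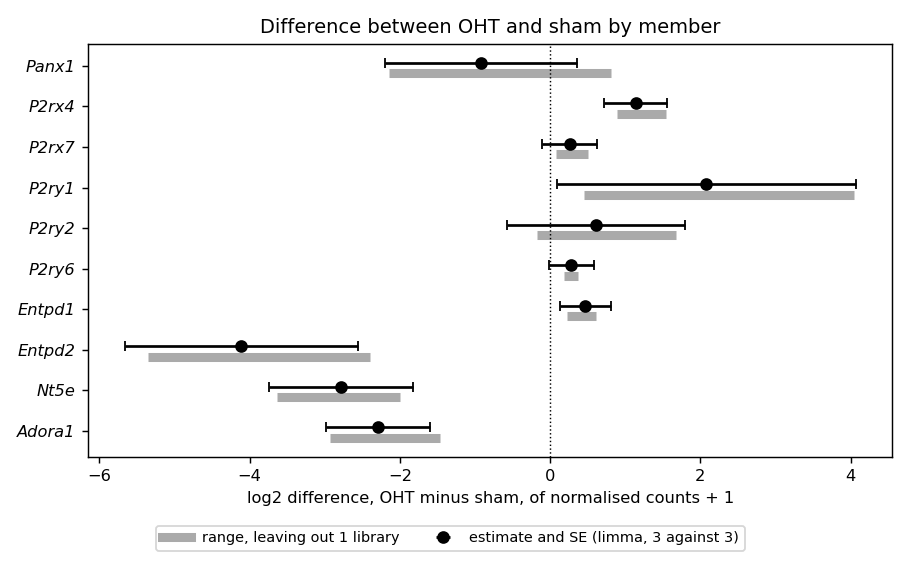
Log2 difference between OHT and sham of normalised counts + 1 for each gene (points, with the limma SE) and its range when each of the 6 libraries was left out in turn (grey). The ranges of Panx1 and P2ry2 crossed 0, and those of Adora1, Nt5e and Entpd2 stayed below it.

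Beside its values, each gene was set against all genes with a mean of at least 100 for the pattern most like its own over the 6 sorted libraries, by Pearson's r of log2(value + 1). With 6 libraries such values run high, since between 3 and 259 genes had an r over 0.95 with a given member. They describe a shared pattern across libraries that share depth and makeup, and no p is given. For Nt5e the nearest genes were Prom1 (r 0.9997, Spearman's rho 1.00), which shapes the outer segment discs of photoreceptors, and Impg2 (r 0.9988, rho 1.00), a proteoglycan of the matrix around photoreceptors. Prom1 was at 1092, 10621 and 8148 normalised counts in sham and 111.9, 412.4 and 1739 in OHT. All of these values had the rank order of Nt5e, and r was 1.00 for both genes without the 2 libraries in which Nt5e was farthest from its median.

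For P2rx4 the nearest were Mexis (r 0.9907) and Cd72 (r 0.9889), the latter a surface protein known from B cells and myeloid cells. Cd72 was at 5579, 5175 and 15424 normalised counts in sham and 20269, 22905 and 12901 in OHT, so that replicate 3 stood apart from the other libraries of its group in both genes. Entpd1 was nearest to Herpud1 (r 0.9911) and Sf3b1 (r 0.9868), of which Herpud1 acts in the removal of misfolded proteins from the endoplasmic reticulum. Herpud1 reached 64418 in OHT replicate 3 and was at 22368 to 36517 in the other 5 libraries. P2rx7 was nearest to Slc44a1 (r 0.9986) and Utp3 (r 0.9887), P2ry6 to Fes (r 0.9814) and Inip (r 0.9782), and Adora1 to Capn10 (r 0.9976) and Wrap73 (r 0.9972). Panx1 was nearest to Nelfcd (r 0.9951) and Hnrnpll (r 0.9949), and Entpd2 to Pxmp2 (r 0.9899) and Pitpnm3 (r 0.9875). Nelfcd spanned only 2512 to 3005 normalised counts. In ppm it was lowest in OHT replicate 1 (45.7 against 65.4 to 75.6), where Panx1, at 13.3 ppm, was below sham replicate 2 alone. P2ry2 was nearest to Adissp (r 0.9851) and Srcap (r 0.9819), of which Srcap came down to 0.77 without the 2 farthest libraries. P2ry1 was nearest to Pola2 (r 0.9701) and Rpa2 (r 0.9688), which came down to 0.88 and 0.89. Rpa2 too was lowest in OHT replicate 1 in ppm, at 22.9, where P2ry1 was at 2.2 ppm, below OHT replicate 2 alone.

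**Figure D3:**
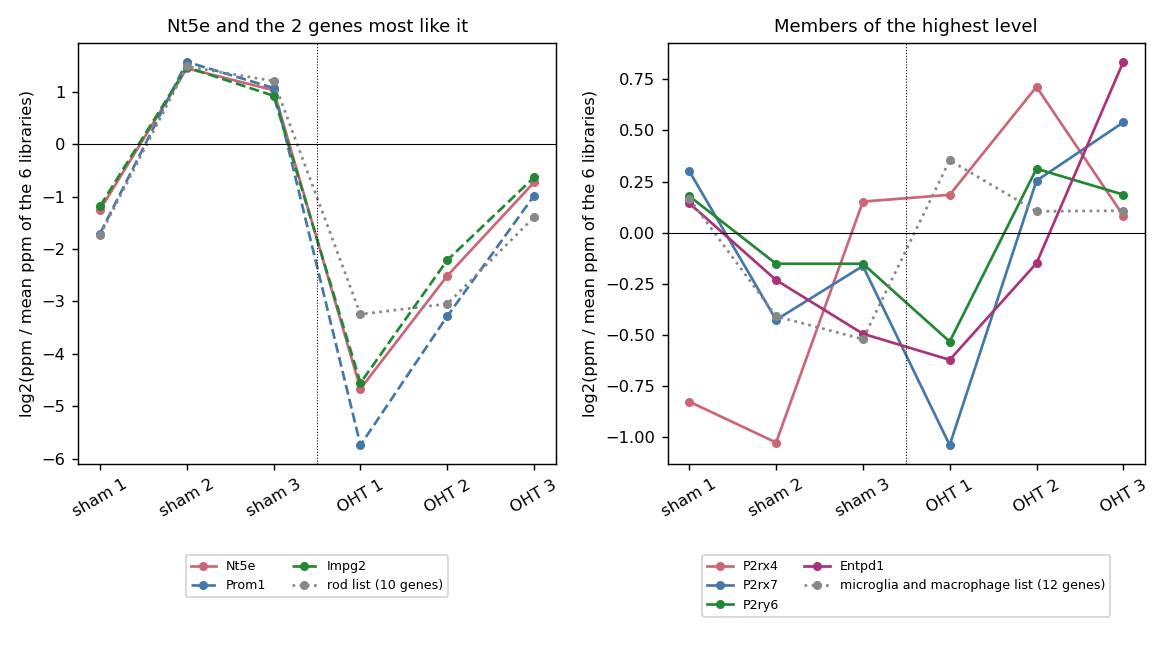
Log2 of ppm over the mean ppm of the 6 sorted libraries, for Nt5e with Prom1, Impg2 and the sum of the rod list (left), and for P2rx4, P2rx7, P2ry6 and Entpd1 with the sum of the microglia and macrophage list (right). Lines only join the values of a gene; Nt5e, Prom1 and Impg2 were high in sham replicates 2 and 3, while P2rx4 and P2ry6 were highest in OHT replicate 2 and P2rx7 and Entpd1 in OHT replicate 3.

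Levels of different genes were compared as ppm per 1000 bases of the longest coding transcript. In sham the order was Entpd1 (126 ± 28.5), P2ry6 (86.5 ± 11.8), P2rx4 (41.3 ± 19.4), P2rx7 (15.2 ± 3.98) and Adora1 (8.54 ± 2.02; SD, n = 3), and neighbours among these 5 did not overlap. Below them Nt5e (5.31 ± 3.64), Entpd2 (3.15 ± 2.58), Panx1 (1.51 ± 0.928), P2ry2 (0.632 ± 0.408) and P2ry1 (0.156 ± 0.199) overlapped with their neighbours, Nt5e also with Adora1. In OHT the first 4 genes kept this order, with Entpd1 at 158 ± 84.8, P2ry6 at 90.6 ± 25.8, P2rx4 at 73.2 ± 18.2 and P2rx7 at 16.6 ± 7.97. Here Entpd1 overlapped with P2ry6 and P2ry6 with P2rx4, while P2rx4 did not overlap with P2rx7. Adora1 came next at 2.15 ± 1.73, and the last was Entpd2 at 0.321 ± 0.431. Within the pathway the ADP receptors P2ry12 and P2ry13, which mark microglia and are not among the 10 genes, stood above all of them, at 724 ± 406 and 339 ± 125 in sham.

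The cultures held a different set. The tables were normalized separately, so levels across them are given in ppm with no test. The order per 1000 bases was led by P2rx4 (12.1 ± 4.49), followed by P2ry2 (3.06 ± 0.827), Entpd1 (2.03 ± 0.506) and P2ry6 (1.78 ± 0.435), of which the latter 3 overlapped with their neighbours among them and P2rx4 stood above all. Entpd1 was at 10.9, 8.21 and 6.65 ppm in cultures 1, 2 and 3, against 389 to 1070 ppm in the sorted libraries, whose mean was 69.9 times higher. P2ry6 was at 2.54 to 4.21 ppm in the cultures and 119 to 214 ppm in the sorted libraries (49.9 times), and P2rx7 at 1.34 to 1.96 and 38.1 to 114 ppm (45.5 times). Adora1, at 1.15, 1.15 and 1.26 ppm, was 22.4 times higher in the sorted libraries on average, but OHT replicate 1, at 1.64 ppm, came near the cultures. P2rx4 had a smaller gap, at 18.7, 38.4 and 40.8 ppm in the cultures and 75.9 to 254 ppm in the sorted libraries (4.74 times).

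These 5 genes were lower in each culture than in any sorted library, as were 16.5% of the 15438 genes in both tables. The microglia and macrophage list summed to 101 to 152 ppm in the cultures, with Csf1r at 2.65 to 5.54 ppm against 1512 to 3538 ppm, and P2ry12 at 0.0261 to 0.151 ppm against 690 to 2582 ppm. Its part in these gaps was not tested. P2ry2 was the only member higher in each culture than in any sorted library (32.5% of genes in both tables), at 6.42, 9.95 and 11.2 ppm against 0.315 to 5.11 ppm. Panx1 (4.03 to 4.44 ppm), P2ry1 (0.317 to 0.423 ppm), Entpd2 (0.952 to 1.24 ppm) and Nt5e (1.89 to 2.88 ppm) lay within the range of the sorted libraries. Reads of P2ry6 were 38.4 to 388 times those of P2ry2 in the sorted libraries and 0.255 to 0.655 times in the cultures.

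**Figure D4:**
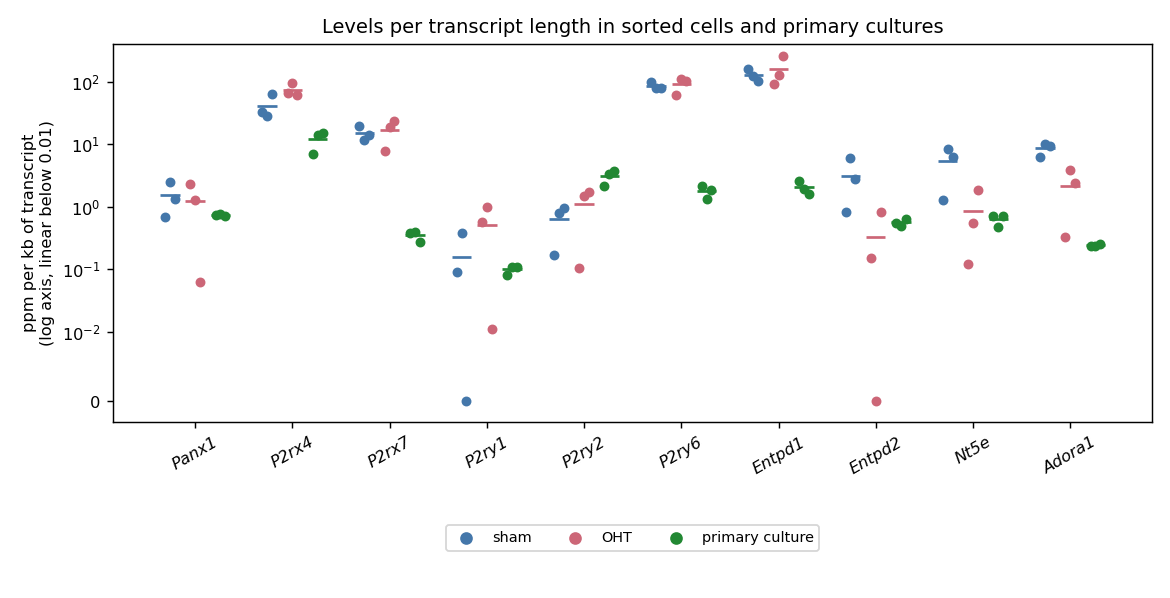
Ppm per 1000 bases of transcript (vertical, log axis that is linear below 0.01) of the 10 genes in 3 sham, 3 OHT and 3 culture libraries; points are libraries and bars are group means. P2rx4, P2rx7, P2ry6, Entpd1 and Adora1 were lower in all cultures than in all sorted libraries, and P2ry2 was higher.

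The rest of the pathway was followed through 42 other genes, of which 38 were listed in the sorted table by the symbol used and 35 were tested. Acp3, listed there as Acpp, its former symbol (log2 difference -0.0047, SE 2.34), was not counted among these 38. None passed an adjusted p under 0.05 in limma or edgeR, and DESeq2 called 1, Alpl (1.74% of all genes). At an unadjusted p under 0.05 limma had 4 on the higher side (5.37% of all genes) and 1 on the lower side (6.3% of all genes). The median log2 difference was -0.14, against -0.12 over all genes. The 3 with the smallest p on the higher side act with P2X7 in the inflammasome, whose 6 listed genes had a median log2 difference of 0.79. Pycard, its adaptor, was at 5433, 2715 and 4117 normalised counts in sham and 12366, 7031 and 8019 in OHT, without overlap (1.17 on the log2 scale, SE 0.37, adjusted p 0.332 in limma). Casp1, the protease that cuts interleukin-1β, was at 1832, 1235 and 2170 in sham and 5637, 2700 and 3238 in OHT, also without overlap, as were 9.26% of all genes on the higher side (1.11, SE 0.40, limma adjusted p 0.363). Il1b, the cytokine gene itself, was at 4058, 4071 and 9524 in sham and 20658, 7960 and 15365 in OHT, with overlap (1.33, SE 0.45, limma adjusted p 0.343). Nlrp3, the sensor of the complex, was not among them, with a log2 difference of -0.52 (SE 0.39). In the cultures Pycard was at 3.38 to 3.60 ppm against 69.0 to 212 ppm in the sorted libraries, and Il1b was not listed in the culture table. Nlrp3 was at 0, 0.0264 and 0.0261 ppm in cultures 1, 2 and 3, under the limit that a count of 0 allows there, and at 21.5 to 104 ppm in the sorted libraries. The part of the microglia and macrophage list, whose values stand beside P2rx4, was not tested here either.

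On the lower side the smallest p belonged to Alpl, an alkaline phosphatase that can also turn AMP into adenosine. Its normalised counts were 511.4, 3326 and 3146 in sham and 74.6, 365.5 and 629.9 in OHT, so sham replicate 1 lay below OHT replicate 3, as for Nt5e. OHT minus sham was -2.75 on the log2 scale (SE 0.88, limma adjusted p 0.332), and the DESeq2 adjusted p was 0.0256. Mural and fibroblast genes summed to 209 to 598 ppm in sham and 31.3 to 76.2 ppm in OHT. Dcn was at 0 in part of the libraries. Rgs5 and Vtn carried these sums, and the OHT mean in ppm was lower for 7 of the 8 genes. It was higher for 1, Kcnj8, at 15.3 ppm in OHT replicate 1 against 1.81 to 5.19 ppm in sham. Endothelial genes summed to 216 to 458 ppm in sham and 108 to 203 ppm in OHT, and Kdr and Flt1 carried these sums. Only 1 of the 6, Cldn5, did not overlap in ppm (11.4% of all genes). In sham replicate 3 Pecam1 and Cdh5, at 1.87 and 0.18 ppm, were below every OHT library. The rod sums given above had the same rank order over the 6 libraries as Alpl. The part of these lists was not tested.

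Adora2b, a receptor of adenosine with low affinity, was at 91.9, 352.4 and 167.4 normalised counts in sham and 9.67, 107 and 65.7 in OHT, and the log2 difference of -2.06 had an SE of 1.10 (adjusted p 0.484 in limma). In the cultures it was at 30.8 to 40.0 ppm, 10.6 times the mean of the sorted libraries, while Adora1 was lower there. Adk, the kinase that clears adenosine inside the cell, had a log2 difference of -0.84 (SE 0.52, limma adjusted p 0.527) and was at 264 to 294 ppm in the cultures against 6.85 to 58.2 ppm in the sorted libraries. Of the 35 other genes in both tables, 11 were lower (16.5% of all genes in both tables) and 10 higher (32.5%) in each culture than in any sorted library. Nlrp3, P2ry13, Gja1 (the connexin 43 gene) and Entpd7 were chosen after their values were seen. Gja1 was at 170 to 199 ppm in the cultures and 0.382 to 56.8 ppm in the sorted libraries. Entpd7, a nucleotidase inside the cell, was at 172.5 to 226.8 normalised counts in sham and 353.1 to 1042 in OHT, 1.56 higher on the log2 scale (SE 0.62, adjusted p 0.385 in limma).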

How the data were processed

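The authors deposited a normalised signal for each gene in each library, in tables of 16367 genes (sorted cells) and 17035 genes (cultures). The submitters' processing notes name bcl2fastq 2.20, Trim Galore 0.6.6, FastQC 0.11.9, STAR 2.7.1a and build mm39. How reads were counted, with which annotation, and how they were normalized is not given in the sources used here. Each column was a whole number of reads times 1 factor (100% of values within 0.05 reads), not divided by gene length. In culture replicate 3 the factor is too near 1 to check this. Reads and totals were recovered by dividing by that factor. It was 1.382 in OHT replicate 1 and 0.8014 to 1.033 in the other sorted libraries, so positions of this library can differ between normalised values and ppm. A chi-square per gene of 51.2 to 818 showed no replicates within sampling noise. All columns belonged to a sample.

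OHT was compared with sham by limma 3.58.1 under R 4.3.3, with its variance trend. Values were log2(value + 1), and 14403 genes whose mean reached 10 were tested, with Benjamini-Hochberg adjustment over all of them. On this scale the fold change of low genes depends on the pseudocount. A two-sided exact permutation test over the 6 libraries was added for each member. edgeR 4.0.16 and DESeq2 1.42.0 on recovered reads were alternatives. Transcript lengths came from GENCODE M21 (GRCm38). Python 3.11.15 and matplotlib 3.10.9 drew the figures.

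The members, the other pathway genes and the markers were chosen with earlier results of these data known. Named genes were the members, the 3 other pathway genes per direction with the smallest p, the 2 genes nearest in pattern to each member with a mean of at least 100 and a symbol name that is not a predicted gene's, defining markers, and those said to be chosen later.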

Additional observations from a re-analysis of the deposited data

How the results depend on the processing

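The 10 members gave 189 log2 differences over 19 alternatives (a pseudocount of 0.5 or 10, every gene kept or only means of 100 and above, TMM, quantile normalization, no variance trend, array weights, a replicate block, the GC and length correction with and without that block, leaving out each library, edgeR and DESeq2). P2ry1 gave none at a mean of at least 100. No member passed an adjusted p of 0.05 in any of them, the smallest being 0.0619. Of the values 184 kept their sign and 5 did not: Panx1 ranged from -2.14 to 0.81 when 1 library was left out (0.81 without OHT replicate 3) and was at 0.11 with edgeR and 0.21 with DESeq2, P2ry2 ranged from -0.18 (without sham replicate 1) to 1.67 when 1 was left out, and P2ry6 was at -0.08 after quantile normalization. The cause was not tested. Same-numbered sham and OHT libraries had correlations of deviations of 0.078, -0.025 and -0.045, so the numbers were not taken as a pairing. Over all genes, where limma called 0 (1680 at an unadjusted p under 0.05), there were 2 calls with the replicate block, 1 with that block and the GC and length correction, 250 with DESeq2, and 0 to 12 when 1 library was left out (12 without sham replicate 1, 7 without sham replicate 3). Genes at an unadjusted p under 0.05 numbered 544 without sham replicate 2, 1002 without sham replicate 3 and 2500 without OHT replicate 2. Of the other pathway genes DESeq2 called 1, Alpl, against 0 in limma. The 5 members lower in every culture, and P2ry2 as the higher one, held with totals that leave out the 20 highest genes, with scaling to the median of the 12300 genes detected in each of the 9 libraries, and without each culture. Low counts limit P2ry1, P2ry2, Entpd2 and Panx1, each of which had 19 reads or fewer in at least 1 sorted library.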
